A study of Mus musculus with 378 samples.

Results

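A set of 7 genes that mark pancreatic duct cells (Krt19, Krt7, Sox9, Cftr, Spp1, Muc1 and Tff2) was followed across islet RNA libraries. They were taken from the tables by symbol, and all 7 were found among the 22180 genes of the deposited tables. Poly(A) RNA was sequenced from the islets of Diversity Outbred mice, whose animals each inherit a different mosaic of several founder strains. Each library came from a mouse with its own number. Every mouse ate a diet rich in fat and sugar, labelled as 45% fat, so no other diet was compared, and the labels give no age. The mouse numbers were divided into 4 number bands of 100, starting at 21. The bands held 46, 46, 49 and 47 female and 45, 48, 50 and 47 male libraries, and the labels do not say what a band stands for.

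The pancreatic ducts carry the enzymes of acinar cells to the gut and add a fluid rich in bicarbonate. Their lining cells hold keratin filaments, are kept in their identity by transcription factors such as Sox9, and secrete through the chloride channel Cftr. Islets are separated from this exocrine tissue by digestion and picking, so an islet preparation can carry duct and acinar cells along. In RNA from a whole preparation, fewer cells of a type and less RNA per cell cannot be told apart.

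Counts per library ran from 15.1 M to 68.8 M (median 34.8 M), and number band 4 was shallower, with a median of 23.99 M against 36.4 M to 37.2 M in the other bands. Beta cell genes (10 genes, among them both insulins) took a median of 13.5% of the counts in females and 16.3% in males. Acinar genes (26 listed) took between 0.0130% and 11.6% of the counts, with a median of 0.430%. These and later shares refer to library totals scaled by TMM, edgeR's adjustment between libraries, and not to the raw totals. Of the libraries labelled female, 2 held little Xist, under 5% of the female median. Without them 3 of the 7 duct genes still differed by sex and 4 still followed the acinar genes, the same counts as with them.

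Upstream sequences are shown first for 4 of the 7 genes, those with an entry in the RefSeq promoter table (GRCm38.p6), so that the promoters of Cftr and Muc1, which followed acinar genes below, can be read beside those of Krt7 and Spp1, which did not. Each run holds the 250 bases before the RefSeq start, read 5′ to 3′ on the plus strand, and capitals mark matches to a searched motif. The intervals are chr6:18170437-18170686 for Cftr, chr3:89228806-89229055 for Muc1, chr15:101412153-101412402 for Krt7 and chr5:104434861-104435110 for Spp1. The Krt7 interval lies inside the longer span that the deposited gene table gives for Krt7.
Cftr: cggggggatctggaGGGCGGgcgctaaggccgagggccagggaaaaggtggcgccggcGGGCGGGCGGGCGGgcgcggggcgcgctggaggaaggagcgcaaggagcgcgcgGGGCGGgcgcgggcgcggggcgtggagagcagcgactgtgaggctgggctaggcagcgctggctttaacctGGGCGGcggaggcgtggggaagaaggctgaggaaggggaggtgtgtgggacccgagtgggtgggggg
Muc1: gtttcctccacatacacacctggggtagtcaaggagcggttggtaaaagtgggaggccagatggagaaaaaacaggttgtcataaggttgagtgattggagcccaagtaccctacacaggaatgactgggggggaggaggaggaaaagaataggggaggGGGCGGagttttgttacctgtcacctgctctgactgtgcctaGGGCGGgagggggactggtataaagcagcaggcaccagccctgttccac
Krt7: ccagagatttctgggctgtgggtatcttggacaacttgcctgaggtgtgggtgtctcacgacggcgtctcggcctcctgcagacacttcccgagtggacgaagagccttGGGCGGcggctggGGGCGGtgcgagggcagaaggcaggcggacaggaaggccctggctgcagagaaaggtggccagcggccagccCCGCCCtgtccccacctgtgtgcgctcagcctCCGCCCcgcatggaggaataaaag
Spp1: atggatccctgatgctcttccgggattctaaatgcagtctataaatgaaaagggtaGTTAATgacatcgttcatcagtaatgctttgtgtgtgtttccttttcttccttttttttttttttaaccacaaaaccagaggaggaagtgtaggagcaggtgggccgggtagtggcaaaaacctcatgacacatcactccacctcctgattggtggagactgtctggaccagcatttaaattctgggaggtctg

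The Cftr window was the richest of the 4 in G and C, at 76.4%, and held 30 CG dinucleotides, against medians of 52.4% and 6 over the 32851 promoters of the table. Krt7 had 66% and 16, Muc1 54.8% and 3, and Spp1 43.6% and 3. The search covered both strands and 5 motifs. The GC box GGGCGG, or its complement on the other strand, occurred 6 times before Cftr, 4 times before Krt7 and 2 times before Muc1, and 32.7% of all promoters held at least 1. In the Cftr run, 3 of these matches overlap at their ends. The HNF1 half-site GTTAAT was found before Spp1, and 6.43% of promoters held it. A further Spp1 entry, chr5:104435942-104436191 with 35.6% G and C, is not shown and held none of the 5 motifs. None of the 4 windows held the SOX core ACAAT (27.7% of promoters), the AP-1 site TGANTCA (6.75%) or the cyclic AMP element TGACGTCA (1.55%). GC boxes thus stood both before genes that followed the acinar genes and before Krt7, which did not.

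The keratins form the filaments of simple epithelia. Krt7 lies on chromosome 15, 101411043 to 101430313, plus strand (GRCm38), and was the steadiest of the 7 genes. Its level ran from 127 to 459 CPM (counts scaled to the library total), with a median of 224.5 CPM. In females the lowest, median and highest values were 127, 212.9 and 425 CPM, and in males 133.1, 244.4 and 459 CPM. Its spread between mice with sex and band removed, an SD of 0.28 on the log2 scale, was at the 41.1 percentile of all tested genes. Krt19, on chromosome 11, 100140810 to 100148665, minus strand, is the other keratin and varied far more. Its lowest, median and highest values were 1.49, 33.05 and 262.9 CPM in females and 1.52, 28.2 and 461 CPM in males. The SD of Krt19 was 1.68 on the log2 scale, at the 97.9 percentile, and the ranges of the sexes overlapped almost wholly.

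Sox9, the transcription factor of duct progenitors and mature duct cells, lies on chromosome 11, 112782224 to 112787760, plus strand. It was scarce, with lowest, median and highest values of 0.223, 0.797 and 2.72 CPM in females and 0.0473, 0.588 and 4.12 CPM in males. Cftr, the chloride channel, lies on chromosome 6, 18170687 to 18322768, plus strand, and ran from 0 over 0.666 to 9.26 CPM in females and from 0 over 0.595 to 7.81 CPM in males. The 3 libraries in which Cftr was at 0 were all in number band 4. A count of 0 allows a level of up to 0.198 CPM in the shallowest library and 0.0436 CPM in the deepest, taking 3 counts as the limit and counting error alone. Both genes therefore sat near the limit of detection in some libraries, and their medians rest on few reads.

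Spp1 encodes osteopontin, a secreted phosphoprotein made by duct cells and also by macrophages and other cells. It lies on chromosome 5, 104435118 to 104441050, plus strand. Its lowest, median and highest values were 27.2, 158.8 and 1018 CPM in females and 27.1, 203.6 and 4752 CPM in males. A single male of number band 3 stood at 4752 CPM, and the next library was at 1431 CPM. Spp1 overlaps Gm42793 on the same strand, and its counts were whole in only 0.265% of libraries. Whether reads were divided between these genes was not tested. Gm42793 amounted to 1.19% of the mean of Spp1. Muc1, a mucin of the apical membrane, lies on chromosome 3, 89229057 to 89233381, plus strand, and ran from 1.25 over 5.58 to 18.1 CPM in females and from 1.55 over 4.90 to 16.4 CPM in males. Tff2, a secreted trefoil peptide that stands with mucins on epithelia, lies on chromosome 17, 31141049 to 31144282, minus strand. It ran from 0 over 4.60 to 68.5 CPM in females and from 0 over 3.88 to 117.9 CPM in males, with 4 libraries at 0, 3 of them female. Its SD of 1.76 on the log2 scale, at the 98.2 percentile, was the widest of the 7.

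**Figure D1:**
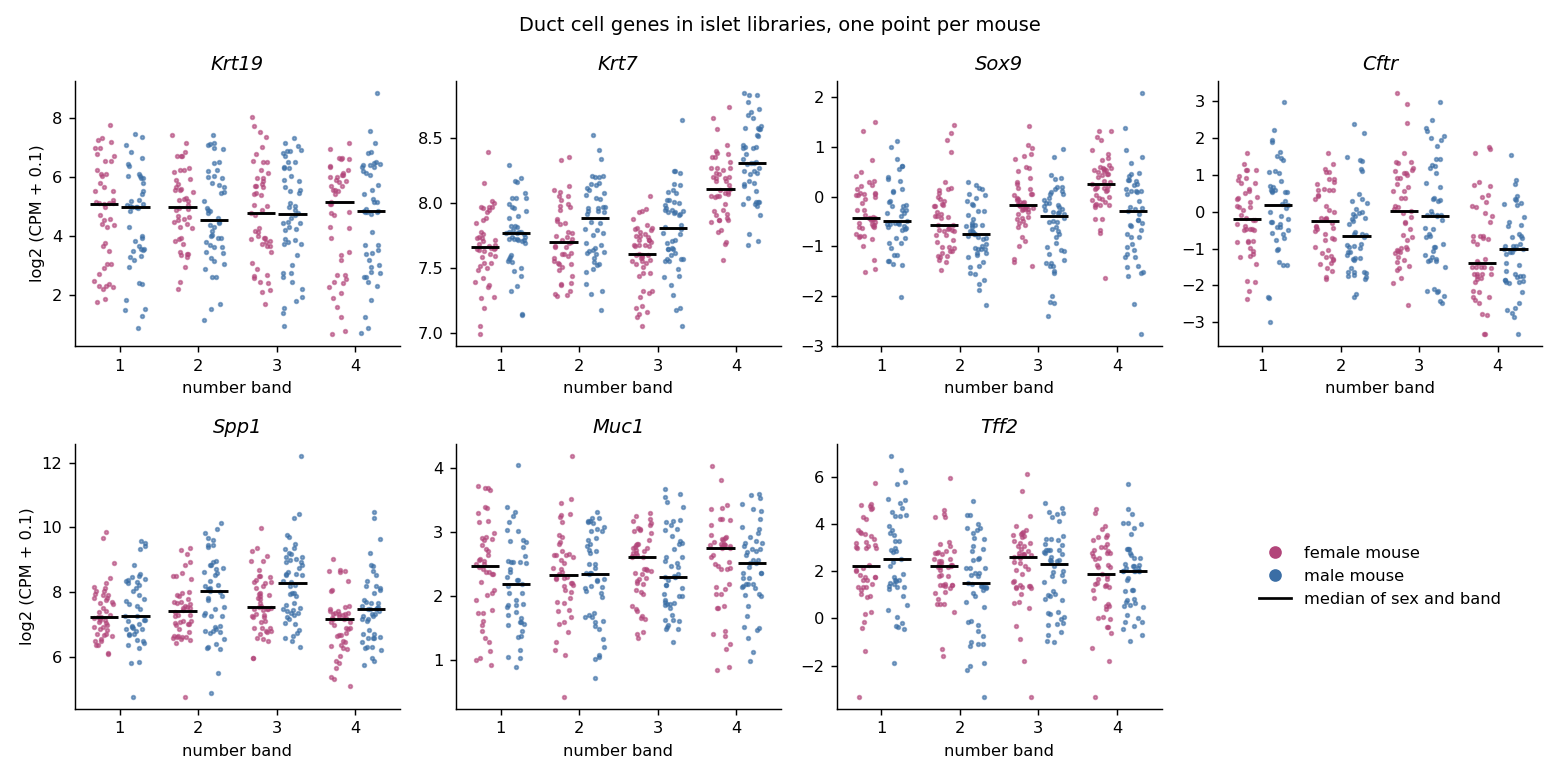
Each panel plots 1 gene as log2 of CPM plus 0.1 (vertical axis) against number band (horizontal axis), with 1 point per mouse, females and males in separate colours, and a black line at the median of each sex and band. Krt7 is raised in band 4 in both sexes, Cftr is lowered there, and Krt19 and Tff2 spread over a far wider range than Krt7.

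Compared per kilobase of the longest coding transcript, the genes ordered as Spp1 (median 118.1 CPM per kb), Krt7 (54.8), Krt19 (18.7), Tff2 (7.38), Muc1 (2.35), Sox9 (0.172) and Cftr (0.101). Each gene was set against the next in this order within libraries. Spp1 exceeded Krt7 in 85.98% of libraries, Krt7 exceeded Krt19 in 84.13%, Krt19 exceeded Tff2 in 73.28%, Tff2 exceeded Muc1 in 80.95%, Muc1 exceeded Sox9 in 100%, and Sox9 exceeded Cftr in 67.46%. The Muc1 and Sox9 levels did not cross in any library, whereas every other neighbouring pair crossed in some mice. Before division by length, the median CPM of Krt7 was above that of Spp1, and that of Muc1 above that of Tff2. The order within these pairs therefore rests on the transcript lengths used. Whether the longest coding transcript of each gene is the one present in these islets was not tested.

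The comparison of the sexes asked whether the duct genes differ between female and male islets on this diet. Sox9 was higher in females, and Spp1 and Krt7 were higher in males, while Krt19, Cftr, Muc1 and Tff2 did not pass the test. In edgeR's quasi-likelihood test with number band as covariate and Benjamini-Hochberg adjustment over 16927 genes, 1 of 7 genes was thus higher in females, where 21.7% of all tested genes were, and 2 of 7 were lower, where 28.8% were. Sex differences were so common in these islets that 3 of 7 is no larger a share than among genes at large. Sox9 differed by 0.38 (female minus male, log2, SE 0.0801, adjusted p = 2.03e-05), a 1.30-fold difference. Of the females, 73.4% lay above the male median. Spp1 fell by 0.59 in females (log2, SE 0.110, adjusted p = 8.49e-07), and 62.6% of males lay above the female median. Krt7 fell by 0.16 in females (log2, SE 0.0285, adjusted p = 1.99e-07), and 67.9% of males lay above the female median. For all 3 genes the ranges of the sexes overlapped, and the shift was below 1 SD of the spread between mice with sex and band removed, which was 0.73 for Sox9, 1.01 for Spp1 and 0.28 for Krt7 on the log2 scale. The male mean of Spp1 was 322.4 CPM, 7.27% lower without the highest library, against 208.2 CPM in females.

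Among the genes that did not pass, the difference of Muc1 was 0.10 (log2, SE 0.0697, adjusted p = 0.216), that of Krt19 0.04 (SE 0.159), that of Cftr -0.06 (SE 0.140) and that of Tff2 -0.07 (SE 0.170). The standard errors of Krt19, Cftr and Tff2 were over 4 times that of Krt7, so only larger differences could be seen in them. Within number bands the Sox9 difference was 0.12, 0.46, 0.46 and 0.46 in bands 1 to 4, and that of Spp1 was -0.19, -0.62, -0.88 and -0.65. The Krt7 difference was -0.09, -0.13, -0.21 and -0.21. Each of the 3 genes kept its direction in the 4 bands. None passed in band 1 alone by edgeR, where Cftr was the 1 gene under 0.05 before adjustment, and Krt7 did not pass in band 2 (adjusted p = 0.0793). The change of the sex difference between bands was tested itself and was called in 0 of 7 genes by edgeR, with 0 under 0.05 before adjustment, where 1.09% of all genes were called. Within a band the females were mostly numbered before the males, so sex and this order cannot be told apart. Summed levels of other cell types also differed by sex. Over all tested genes, 21.7% were called higher in females and 28.8% lower. Alpha cell genes had a median of 2.31% of counts in females (0.637% to 7.17%) and 1.16% in males (0.258% to 4.44%). Of these 8 genes, 7 were called higher in females and 1 lower, and all 12 endothelial genes were lower in females. Delta cell genes, of which 6 of 6 were higher in females, had medians of 0.183% (0.0546% to 0.978%) and 0.132% (0.0179% to 0.597%), and 7 of 10 beta cell genes were lower in females. Macrophage genes had median sums of 105.2 CPM in females (61.9 to 202.7) and 103.3 CPM in males (55.6 to 407.3). Their part in the sex differences was not tested.

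The number bands changed 5 of the 7 genes, where 87.9% of all tested genes were called. Krt7 was 0.50 higher in band 4 than in band 1 (log2, adjusted p = 4.24e-39 over the bands), with medians of 211.3, 216.95, 206.9 and 295.9 CPM in bands 1 to 4. Cftr was 1.12 lower on that scale (log2 difference -1.12, adjusted p = 4.34e-09), with medians of 0.888, 0.632, 0.841 and 0.358 CPM. Tff2 was at -0.72, -0.36 and -0.68 in bands 2, 3 and 4 against band 1 (adjusted p = 6.85e-05), and Sox9 at -0.30, -0.01 and 0.28 (adjusted p = 4.88e-07). Without number band 4, 4 genes passed and Krt7 no longer did (adjusted p = 0.103). The share of all genes called in that fit was not counted, so these 4 cannot be set against genes at large. Spp1 peaked in band 3, at 0.53 above band 1 (adjusted p = 3.62e-06). Krt19 (adjusted p = 0.956) and Muc1 (adjusted p = 0.374) did not pass. These are values of the counts. The deposited variance-stabilised values showed no band difference in any of the 7 genes (limma, smallest p = 0.557). How those values came to hold none is not stated, so they cannot serve as a check of the band differences. Band 4 also had the lowest depth, and its part in these differences was not tested.

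The main question was which of the duct genes follow acinar genes once sex is taken away. An acinar score was formed as the mean log2 CPM of the acinar genes, each centred, and its slope was fitted beside sex and band. An SD of the score was 1.64 on the log2 scale, or 3.12-fold. Each tested acinar gene weighs equally in the score, so this is not the fold of total acinar RNA. Of the 7 duct genes, 4 rose with the score, Tff2, Cftr, Sox9 and Muc1, where 6.92% of the 16902 genes outside the acinar list did. None of the 7 fell with it, where 7.42% did. The median slope was 0.24 over the 7 genes (log2 per SD), 0.04 over the 31 tested genes of a longer duct list, -0.00 over all genes and 1.76 over the acinar genes.

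Tff2 stood apart from the other 6. Its slope was 1.72 (log2 per SD, SE 0.0276, adjusted p = 1.18e-197), close to the acinar genes' median, and ranked 17 among 16902 genes. Across all mice its r with the score was 0.959 (rho 0.957, permutation p = 1e-05, the smallest the resamples can give, adjusted 1.75e-05). Within the 8 combinations of sex and band r ran from 0.919 to 0.985, and without the 2 libraries of most extreme score it was 0.959. The 4 most abundant of the 26 listed acinar genes were Amy2a5 (amylase), Ctrb1 (chymotrypsinogen), Pnlip (lipase) and Prss2 (trypsinogen), and their r with Tff2 was 0.770, 0.943, 0.957 and 0.956. Amy2a5 belongs to a family of near-identical amylase genes, so its counts are uncertain. The 3 genes most like Tff2 over all libraries, of the 12823 with mean CPM of at least 1 and no placeholder symbol, were Clps (colipase, r = 0.960), Zg16 (a zymogen granule protein, r = 0.960) and Cela2a (elastase, r = 0.959), all on the acinar list. In these islets Tff2 thus varied as the acinar genes do, and its name as a duct gene did not describe its pattern.

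Cftr, Sox9 and Muc1 followed the score far less closely. The slope of Cftr was 0.42 (log2 per SD, SE 0.0630, adjusted p = 2.09e-08), that of Sox9 0.25 (SE 0.0352, adjusted p = 1.43e-09) and that of Muc1 0.24 (SE 0.0317, adjusted p = 1.13e-10). Their r with the score was 0.348 (rho 0.383), 0.328 (rho 0.348) and 0.338 (rho 0.332), each with permutation p = 1e-05 and 1.75e-05 after adjustment over 7. Without the 2 most extreme scores r was 0.360, 0.343 and 0.338. Within sex and band Cftr stayed between 0.265 and 0.479 and Sox9 between 0.171 and 0.628, both positive in 8 of 8, while Muc1 ran from -0.17 to 0.522 and was positive in 7 of 8. They shared 12.1%, 10.8% and 11.4% of their variance with the score, against 91.9% for Tff2.

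Krt19, Spp1 and Krt7 did not pass. Their slopes were 0.12 (SE 0.0757, adjusted p = 0.304), 0.02 (SE 0.0540, adjusted p = 0.869) and -0.01 (SE 0.0143, adjusted p = 0.726), and r was 0.103 (rho 0.0889, permutation p = 0.0463, adjusted 0.0648), 0.0687 (rho 0.0645, adjusted p = 0.220) and -0.03 (rho -0.02, adjusted p = 0.497). The standard error of Krt7 was the smallest of the 7, so its slope pooled over bands was bounded closely around 0. In single bands its slope was -0.07, -0.01, 0.06 and -0.00 in bands 1 to 4. By edgeR p was 0.00745 in band 1 (adjusted p = 0.0861) and 0.0226 in band 3 (adjusted p = 0.258), with opposite directions. Krt19, with the broad spread described above, left more room. Its slope was 0.41 in band 1 (edgeR p = 0.00394, adjusted p = 0.0629) and -0.17, -0.07 and 0.20 in bands 2 to 4. Leaving out the band covariate gave Krt7 a slope of -0.06 that passed (adjusted p = 0.0101).

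**Figure D2:**
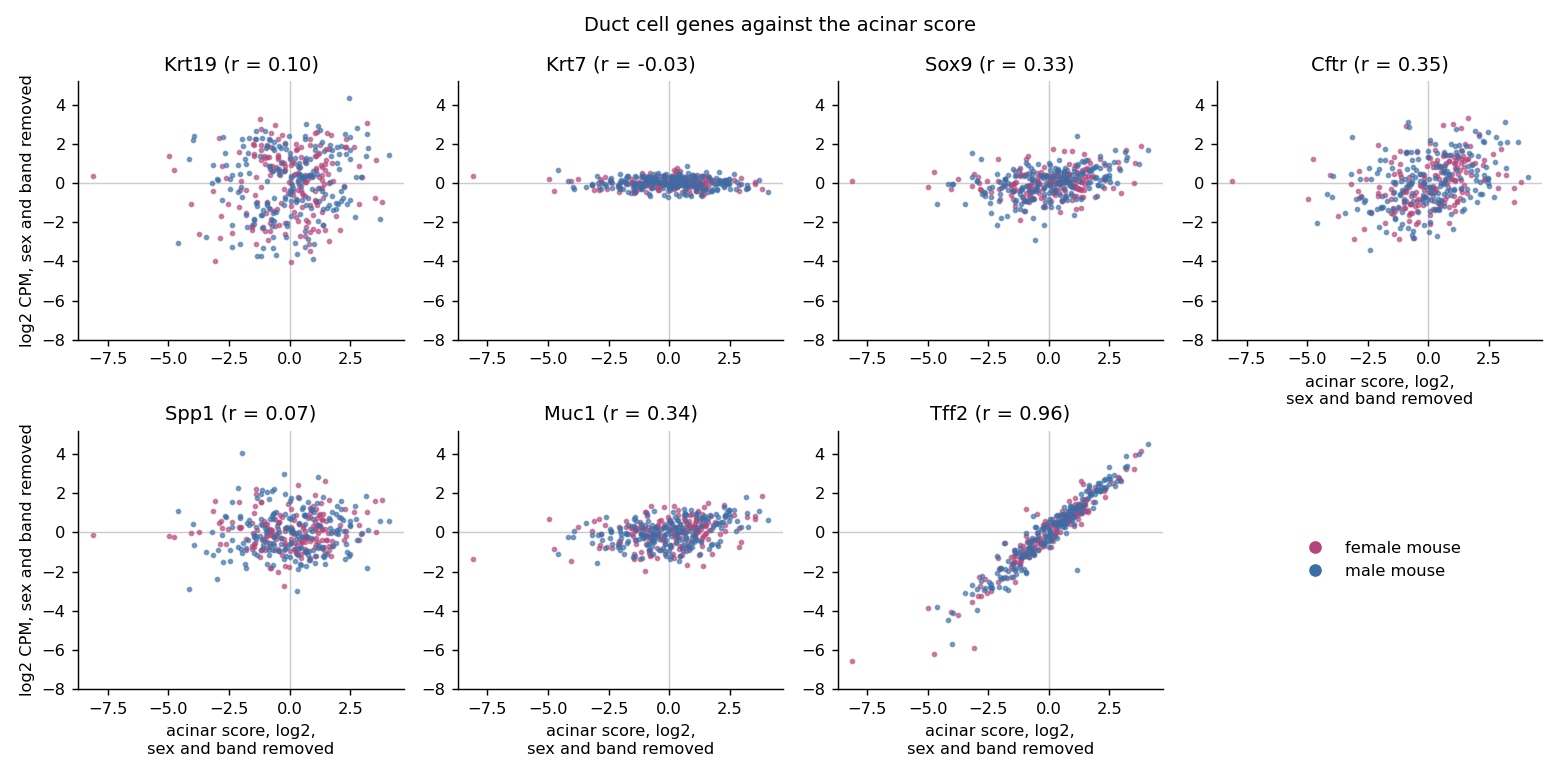
Each panel plots the log2 CPM of 1 gene (vertical axis) against the acinar score in log2 (horizontal axis), both with sex and number band removed, 1 point per mouse, females and males in separate colours, and Pearson r in the title. Tff2 lies along a line (r = 0.96), Cftr, Muc1 and Sox9 form tilted clouds (r = 0.35, 0.34 and 0.33), and Krt7 is flat.

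The slopes did not pass a test of difference between the sexes. By edgeR 0 of 7 were called, 1 (Sox9, p = 0.0447, adjusted p = 0.597) was under 0.05 before adjustment, and 0.00592% of all genes were called. With the scores of 7 other cell types in the same fit the same 4 genes were called, where 4.37% of genes rose and 4.88% fell. Their slopes were then 1.73 for Tff2, 0.40 for Cftr, 0.21 for Sox9 and 0.19 for Muc1. In single bands the smaller slopes often missed the threshold. All 4 passed in band 1, Tff2 and Muc1 in band 2, and Tff2 alone in bands 3 and 4, where Cftr had slopes of 0.37 and 0.49 and Sox9 of 0.18 and 0.26. The slope of Muc1 was 0.39, 0.32, 0.17 and 0.11 in bands 1 to 4, and in band 4 it was not under 0.05 before adjustment either (p = 0.106, adjusted p = 1).

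Acinar genes themselves rose with the score by construction, and 24 of the 25 tested did so. Bhlha15, a transcription factor of acinar cells that other secretory cells also use, was the exception (slope -0.01), with a level of 32.2 to 118.4 CPM across libraries. Of the 31 tested genes of the longer duct list, 10 rose with the score and 3 fell, where 6.92% and 7.42% of genes did. The 6 that varied most like the mean of the 7 genes were Dmbt1 (a secreted mucosal glycoprotein), Lcn2 (lipocalin), Clu (clusterin), Cp (ceruloplasmin), Car2 (carbonic anhydrase) and Anxa3 (annexin). Their r with that mean was 0.692, 0.564, 0.517, 0.454, 0.449 and 0.431. The mean was taken over unscaled log2 values, so genes of wide spread such as Tff2 and Krt19 (SD 1.76 and 1.68) weighed most. Dmbt1 had r = 0.910 with Tff2 and 0.322, 0.336 and 0.356 with Sox9, Muc1 and Cftr. With Spp1, Krt19 and Krt7 its r was 0.0795, 0.0798 and -0.03. Dmbt1 resembled Tff2, with r = 0.957 against the acinar score, while Lcn2 reached 0.366, Clu 0.512, Cp 0.276, Car2 0.300 and Anxa3 0.386. By sex, 11 of the 31 were higher in females and 6 lower, where 21.7% and 28.8% of all tested genes were.

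**Figure D3:**
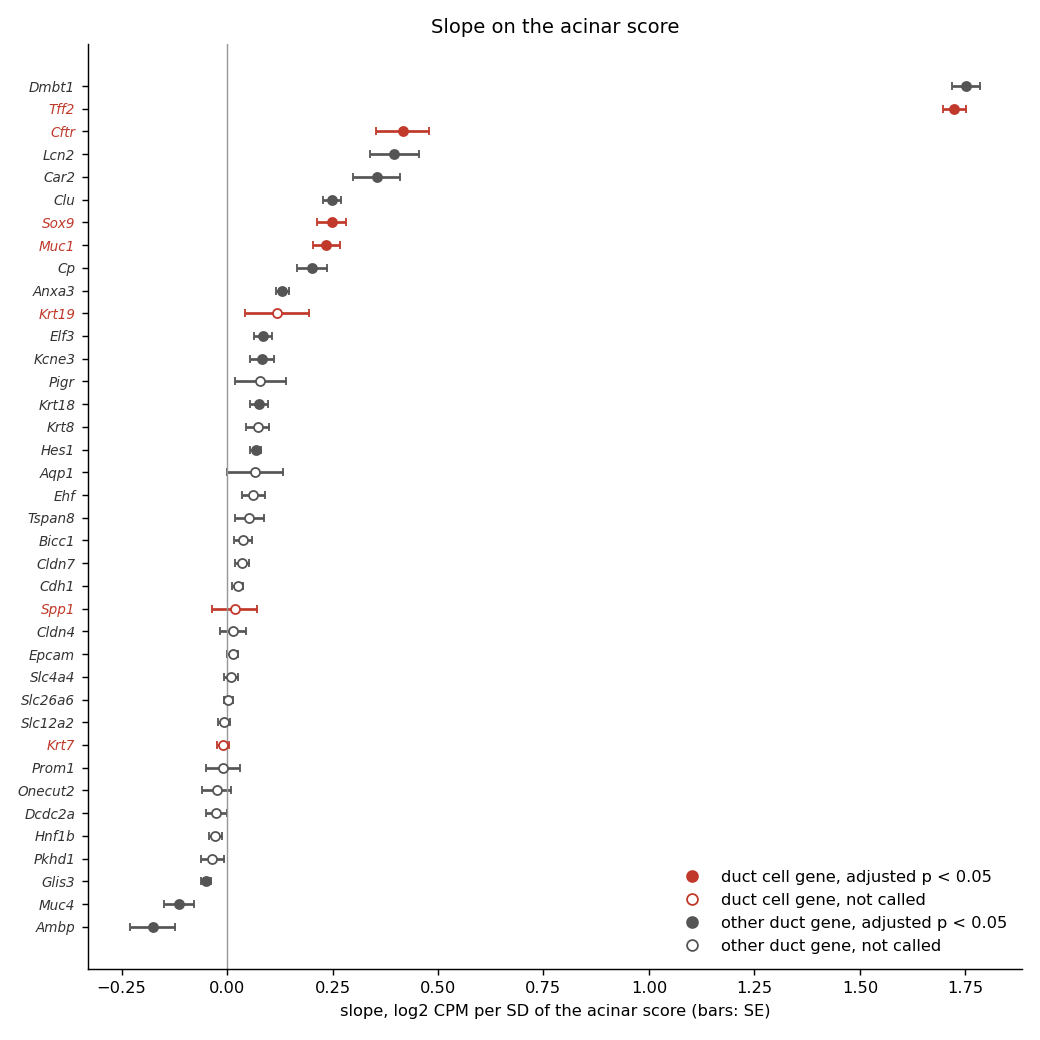
Each point is the slope of 1 gene on the acinar score (horizontal axis, log2 CPM per SD of the score, bars are SE), for the 7 duct cell genes in red and 31 further duct genes in grey, filled where the adjusted p was under 0.05. Tff2 and Dmbt1 stand far to the right at about the acinar genes' median of 1.76, and every other gene lies at 0.42 or below.

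The 7 genes did not vary as a single group. Of their 21 pairs, 10 were positively correlated and 4 negatively after adjustment over the 21, and all 4 negative pairs involved Krt7. The share of pairs passing among genes at large was not counted. Against genes on other chromosomes the median absolute r was highest for Krt7, at 0.121, and lowest for Cftr, at 0.0507. Weak correlations are thus common for Krt7, and its negative pairs are not shown to be particular to duct genes. Sox9 and Cftr were the closest pair, with r = 0.470 (rho 0.447, permutation p = 1e-05, adjusted 3.5e-05), 0.450 without the 2 libraries farthest from the Sox9 median, and 0.197 to 0.657 within sex and band. Tff2 was correlated with Cftr at r = 0.330, with Muc1 at 0.312 and with Sox9 at 0.308, each with adjusted permutation p = 3.5e-05. Sox9 with Muc1 reached 0.251 (adjusted permutation p = 3.5e-05) and Cftr with Muc1 0.199 (adjusted permutation p = 0.0003). The weaker positive pairs were Krt19 with Cftr at 0.159 and with Tff2 at 0.126, Spp1 with Muc1 at 0.131 and with Cftr at 0.114. By rho Spp1 with Muc1 did not pass (0.105, adjusted permutation p = 0.0624). Krt7 was at -0.25 with Sox9, -0.20 with Spp1, -0.19 with Cftr and -0.19 with Muc1, with adjusted permutation p from 3.5e-05 to 0.000651. The 2 keratins did not pass as a pair, at r = -0.07 (adjusted permutation p = 0.193).

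With the acinar score removed as well, Sox9 and Cftr kept r = 0.402 (rho 0.367, adjusted permutation p = 0.000105), positive in 8 of 8 combinations of sex and band. Sox9 with Muc1 fell to 0.158 (adjusted permutation p = 0.00647) and Krt19 with Cftr stood at 0.132 (adjusted permutation p = 0.0286). The correlations of Tff2 with Sox9, Cftr and Muc1 dropped to -0.02, -0.02 and -0.04. In the deposited variance-stabilised values the first of these was 0.126 instead. Tff2 with Krt7 came to 0.154 (adjusted permutation p = 0.00795) and with Spp1 to -0.15 (adjusted permutation p = 0.00795, rho -0.09), both pairs that had not passed before. Positive pairs passing the test thus went from 10 to 4. Without number band 4 only Sox9 with Cftr was left, and with either sex alone 2 pairs were left.

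**Figure D4:**
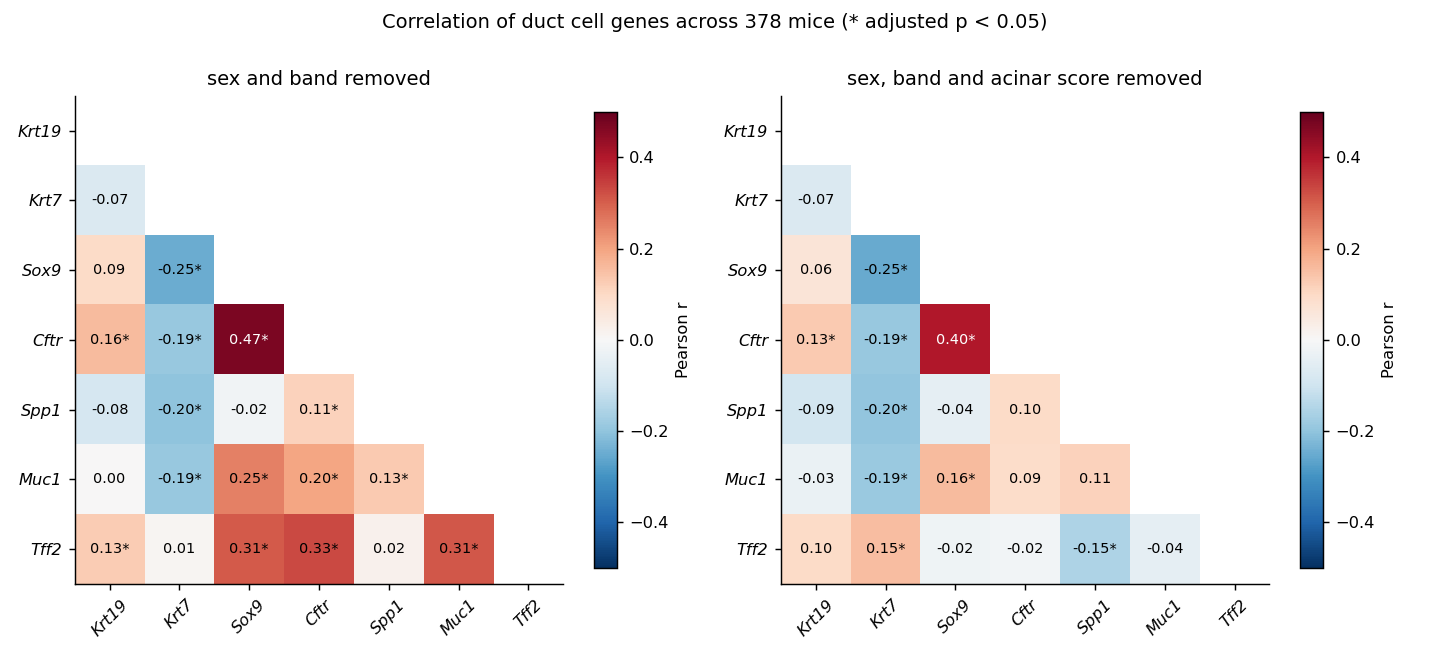
Pearson r of each pair of the 7 genes across all mice, as a colour scale and printed value, with sex and number band removed on the left and the acinar score removed in addition on the right, stars marking adjusted p under 0.05. Sox9 with Cftr is the strongest square in both (0.47 and 0.40), the Krt7 squares with Sox9, Cftr, Spp1 and Muc1 are negative in both, and the Tff2 squares with Sox9, Cftr and Muc1 are near 0 on the right.

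The duct genes also differed in the other cell types they varied with, over 49 correlations with 7 scores. Spp1 was correlated with macrophage genes at r = 0.311 (rho 0.2497, adjusted permutation p = 0.000122; 0.290 without the 2 farthest libraries), with endothelial genes at 0.274 (rho 0.249, adjusted permutation p = 0.000122) and with stellate and pericyte genes at 0.215 (rho 0.139, adjusted permutation p = 0.000163). The first 2 were positive in 8 of 8 combinations of sex and band. Muc1 and Sox9 ran against the beta cell genes, at -0.30 and -0.29 (both adjusted permutation p = 0.000122), and Muc1 was negative in 8 of 8. Krt7 ran with them, at 0.1996 (adjusted permutation p = 0.000392), and with endothelial genes, at 0.202 (adjusted permutation p = 0.00063), and against delta and macrophage genes at -0.24 and -0.22 (both adjusted permutation p = 0.000163). Muc1 was also positive with macrophage genes at 0.207 (adjusted permutation p = 0.000401) and with stellate and pericyte genes at 0.193 (adjusted permutation p = 0.00063). Sox9 was also positive with delta (0.221), stellate and pericyte (0.220), alpha (0.211) and macrophage genes (0.193). Krt19 was negative with stellate and pericyte genes at -0.17 (adjusted permutation p = 0.00303) and with endothelial genes at -0.14 (adjusted permutation p = 0.0228). Spp1 was weakly negative with mesothelial genes at -0.14 (adjusted permutation p = 0.0152) and with beta cell genes at -0.13 (adjusted permutation p = 0.0249). By rho the mesothelial correlation did not pass (-0.0876, adjusted permutation p = 0.145). Cftr and Tff2 each had 1 weak correlation that passed by Pearson r, Cftr with stellate and pericyte genes (0.122) and Tff2 with alpha genes (0.150). By rho the first did not pass (0.102, adjusted permutation p = 0.0901). Passing by rho alone were Cftr with delta genes (0.144, adjusted permutation p = 0.0164) and Tff2 with stellate and pericyte genes (0.139, adjusted permutation p = 0.0181). The scores were correlated with each other, alpha with delta at 0.564 and stellate with endothelial at 0.391. The mesothelial score rests on only 2 tested genes.

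The genes most like each of the other members, by r over all libraries with sex and band removed and under the same limits on level and symbol, are given as a description with no test. For Cftr they were Ankrd1 (a nuclear protein with ankyrin repeats, r = 0.753), Krt17 (a keratin, 0.686) and Lcn2 (0.649). These 3 are scarce, at mean levels of 1.79, 2.61 and 2.42 CPM, as is Cftr at 1.04 CPM. Sox9 was most like Galnt3 (a mucin-type glycosyltransferase, 0.461), Fermt1 (a kindlin of epithelial adhesion, 0.447) and Fgd3 (0.442). Krt7 was most like Stard10 (a lipid transfer protein, 0.648), Abhd15 (0.636) and Trp53i13 (0.625). Abhd15 and Trp53i13 are adjacent on chromosome 11, at 77515121 to 77538607 and 77508099 to 77515980, and their spans overlap. Under those limits, which leave out the overlapping Gm42793, Spp1 was most like Plscr1 (a phospholipid scramblase, 0.508), Plac8 (0.482) and Pnrc1 (0.441). Muc1 was most like Steap4 (a metalloreductase, 0.414), Lif (a cytokine of the interleukin 6 family, 0.412) and Etv6 (a transcription factor, 0.409). None of these was on the acinar list.

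Krt19 differed from the rest in where its most similar genes lay. Among genes with a mean CPM of at least 1 and no placeholder symbol, the 3 closest, Ptrf (cavin, r = 0.452), Arl4d (0.431) and Rundc1 (0.414), all lie on chromosome 11 within 1.83 Mb of Krt19. Of its 20 closest genes 7 (35%) lie on that chromosome, which holds 7.84% of the tested genes, against 1 to 3 of 20 for the other 6 members on their own chromosomes. The adjacent tested genes showed the same for both keratins. Krt36, 38.8 kb from Krt19 and below that level at a mean of 0.618 CPM, had r = 0.681, and Krt17, 115.4 kb away, had 0.287. Beside Krt7, Krt80 had r = 0.592 and Krt83 had 0.496. Keratin genes are similar in sequence. The counts of Krt19 were whole in 100% of libraries and those of Krt7 in 80.2%. Of the 2 neighbours of Spp1, Gm42793, which overlaps it, had r = 0.815 and Sparcl1 had 0.365. The neighbours of Sox9 (Kcnj2, -0.01, and 2610035D17Rik, 0.212), Muc1 (Thbs3, 0.106, and Trim46, 0.00314) and Tff2 (Abcg1, 0.0251, and Rsph1, 0.0122) were less like them. Cftr had St7 at 0.0604 and Cttnbp2 at -0.23. Genotypes were not analysed here.

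**Figure D5:**
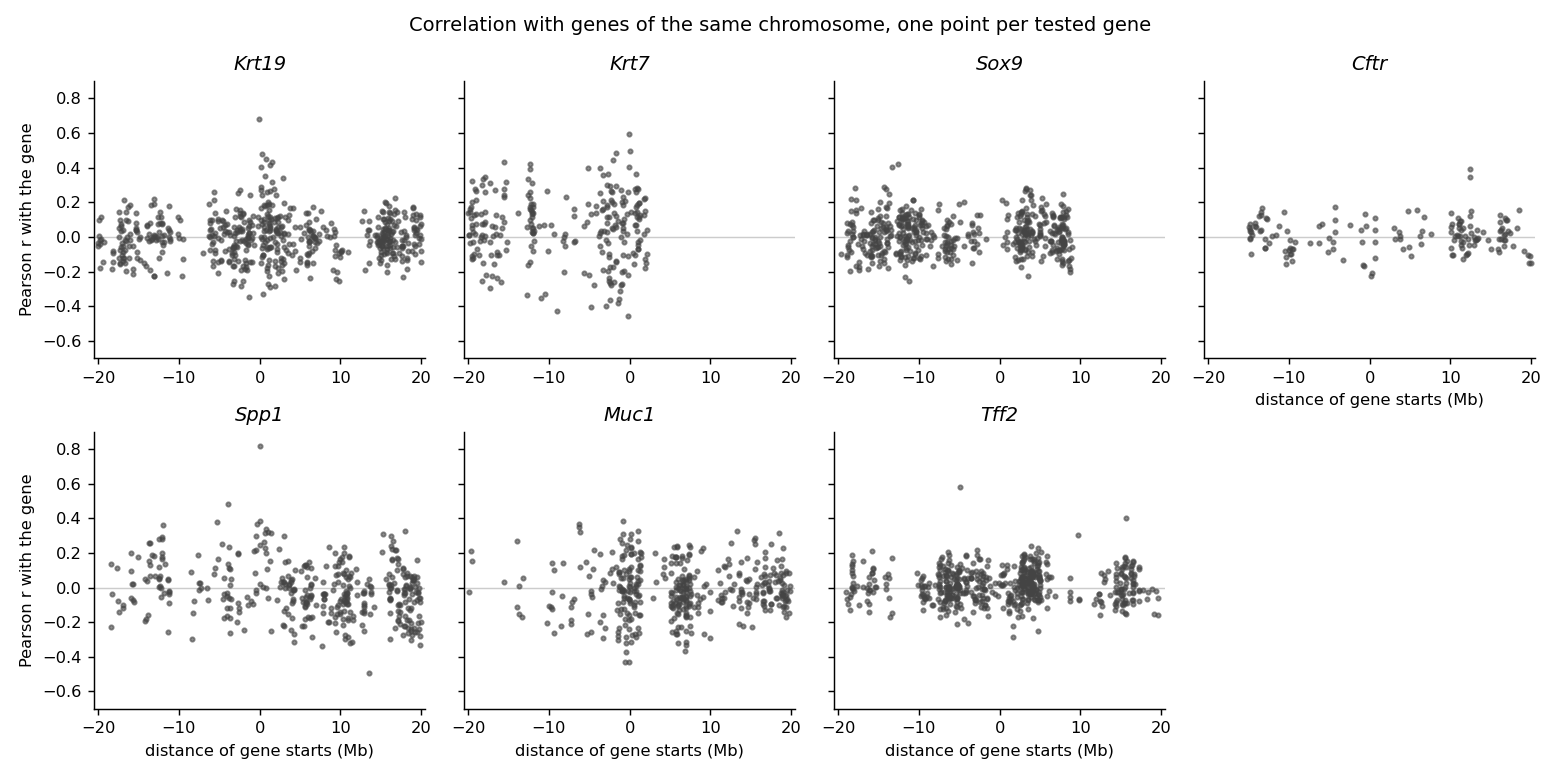
Each panel plots Pearson r between 1 duct cell gene and every tested gene within 20 Mb on its chromosome (vertical axis) against the distance between gene starts in Mb (horizontal axis), 1 point per gene, sex and number band removed. Around Krt19 a peak of positive values stands within about 2 Mb, topped by Krt36 at 0.681, and the highest point near Spp1 is the overlapping Gm42793 at 0.815.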

How the data were processed

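Islet RNA of 378 mice (188 females and 190 males) was measured by sequencing. The deposited table of expected counts per gene is not scaled between libraries, and 67.7% of its values are whole (tolerance 0). The deposited log2 values are the authors' variance-stabilised values. GRCm38 and DESeq2 are named per the submitters' processing notes, without versions, and neither aligner nor counter is stated in the labels. Sex was read from the titles. No 2 of the 378 libraries held identical counts.

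Expected counts were rounded, genes were filtered with filterByExpr by sex (16927 kept) and tested with edgeR 4.0.16 in R 4.3.3 (TMM, quasi-likelihood F test, sex and number band as terms, Benjamini-Hochberg, threshold 0.05). DESeq2 1.42.0 and limma 3.58.1 served as alternatives. Log2 CPM used a prior count of 2. Standard errors are the absolute log2 value over the square root of F. Correlations used residuals after sex and band, with two-sided permutation tests of 100000 resamples within sex and band (Python 3.11.15, NumPy 2.4.6, SciPy 1.17.1), adjusted over 21 pairs, 7 genes or 49 scores. The tests were tried on simulated data. Transcript lengths came from GENCODE. The 7 genes and all lists were chosen with earlier results of these data known. Named besides them were, by rule, 6 further duct genes with the largest r with the mean of the 7, the 3 most similar genes of each member, the adjacent tested genes, and the 4 most abundant genes of the acinar list. Bhlha15 and the values for other scores were named after they were seen. Libraries are separate mice by number. The alternatives without the females with little Xist were added after the data were seen.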

Additional observations from a re-analysis of the deposited data

How the results depend on the processing

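Across 77 single values (sex differences, acinar slopes and correlations), 31 kept direction and side of the threshold under every alternative run for them. Of 665 recomputed values 561 did so, 49 kept direction and no longer passed, 9 newly passed and 46, of 20 results, turned direction. None of the 46 belonged to a result that passed as reported, and 45 passed in neither fit. The exception was Sox9 with Tff2 after removal of the acinar score, 0.126 in the deposited values against -0.02. Its other turned values were 0.0558 as rho, 0.0611 with a prior count of 10, 0.0788 with sex alone removed, 0.0907 without number band 4 and 0.0635 in females. Cftr with Tff2 after that removal turned to 0.0160 with a prior count of 10, 0.0312 in the deposited values and 0.0786 in females, and Muc1 with Tff2 to 0.00512 as rho, 0.0601 in the deposited values and 0.0150 with sex alone removed. Sex differences turned for Tff2 (0.14 with the acinar score as covariate, 0.0526 in the deposited values, 0.32 in band 2 and 0.25 in band 3), Cftr (0.0687 in band 2, 0.28 in band 4) and Krt19 (-0.27 in band 4). Acinar slopes turned for Krt19 (-0.17 in band 2, -0.0653 in band 3), Spp1 (-0.0184 in males, -0.0561 in band 3, -0.0498 in band 4) and Krt7 (0.0010 in females, 0.0634 in band 3), and beside other scores for Krt7 (0.000167 with DESeq2 size factors, 0.00515 in the deposited values, 0.000865 without number band 4). The change of slope by sex turned for Spp1 (-0.0284 in the deposited values) and Muc1 (0.0202 without number band 4). Among pairs, Krt7 with Tff2 turned (-0.00944 in the deposited values, -0.0486 with sex alone removed, -0.0156 without number band 4, -0.00593 in males), as did Krt19 with Muc1 (-0.0043 as rho, -0.00038 with sex alone removed, -0.0042 in females), Sox9 with Spp1 (0.00299 with a prior count of 10, 0.0222 in the deposited values, 0.0177 in females, and 0.00367 in females with the acinar score removed), Krt19 with Krt7 (0.0299 in females, 0.0301 with the acinar score removed) and Krt19 with Sox9 (-0.0037 in females, -0.0236 with the acinar score removed). The count of duct genes differing by sex was 3 under DESeq2, other size factors, no filter, the deposited values, no band covariate, the acinar score as covariate and without number band 4, and 0 in band 1 alone by edgeR (1 under 0.05 before adjustment), with fewer mice. The count differing between bands was 5. It was 4, without Krt7, when number band 4 was left out, where the share of all genes called was not counted. In the deposited values the count of duct genes was 0 by limma (smallest p = 0.557). Those values showed no band difference in any of the 7 genes, so this is no check of the count. The count following the acinar score was 4 in both sexes alone and under every other normalisation, filter and tool, and fell to 2 in band 2 alone, 1 in band 3 alone and 1 in band 4 alone. Positive pairs with the acinar score removed numbered 4, and 2 with a prior count of 10, 1 without number band 4, 2 in females alone and 2 in males alone. The cause of the changes in the deposited values and with the prior count was not tested. Low depth limits Sox9 and Cftr most, since 3 counts are 0.198 CPM in the shallowest library.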
